A study of Mus musculus with 49 samples.

Results

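The cells described here are single neurons in which genes typical of layer 6 and genes typical of layer 5 of the cortex were read together. All 49 cells of the series were of 1 kind: wild type CD1 mice were labelled with FlashTag, a dye that marks cells born at the ventricle, at E13.5 (embryonic day), and brightly labelled neurons of the primary somatosensory cortex were aspirated through a patch pipette at postnatal day (P) 7. Each sample is 1 cell, sequenced in 1 of 5 library pools, and the labels name no animal. With no animal to serve as replicate, all cells count as a single sample here and differences between them carry no p-value. The values that follow describe these cells, and every exact interval covers counting error only.

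A cell was taken when at least 2 of 5 layer 6 genes (Tbr1, Tle4, Foxp2, Syt6 and Hs3st4) and at least 2 of 5 layer 5 genes (Bcl11b, Fezf2, Crym, Ldb2 and Bcl6) reached 10 RPM, the reads of a gene scaled to a common total in every cell. By this rule 13 of 49 cells held both lists (26.5%, exact Clopper-Pearson 95% interval 14.9% to 41.1%). A further 10 cells held the layer 6 list only, 11 cells held the layer 5 list only, and 15 cells held neither. The measured values chose the groups, so the 10 genes of the rule are given as a description, and no difference between the groups is independent of the choice.

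Excitatory neurons of the deep layers fall into broad classes by where they send their axons. Layer 6 corticothalamic neurons project to the thalamus and are marked by Tbr1, Tle4 and Foxp2, while layer 5 subcerebral neurons project to the brainstem and spinal cord and depend on Fezf2 and its downstream regulator Bcl11b (Ctip2). Tbr1 is known to repress Fezf2 and Bcl11b in layer 6 neurons. Young deep layer neurons pass through a state in which both sets of regulators are present in the same cell, and the sets separate as the neurons mature.

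The number of cells with both lists was close to what the frequencies of the lists give. The layer 6 list was present in 23 cells and the layer 5 list in 24 cells, so 11.3 cells with both would be expected if the lists were independent, against the 13 found. For cells with neither list, 13.3 would be expected against the 15 found. When the expectation was summed over the library pools it was 10.8 cells with both lists and 12.8 with neither. Cells with both lists came from every pool: pools 1 to 5 gave 4, 2, 3, 1 and 3 of them.

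**Figure D1:**
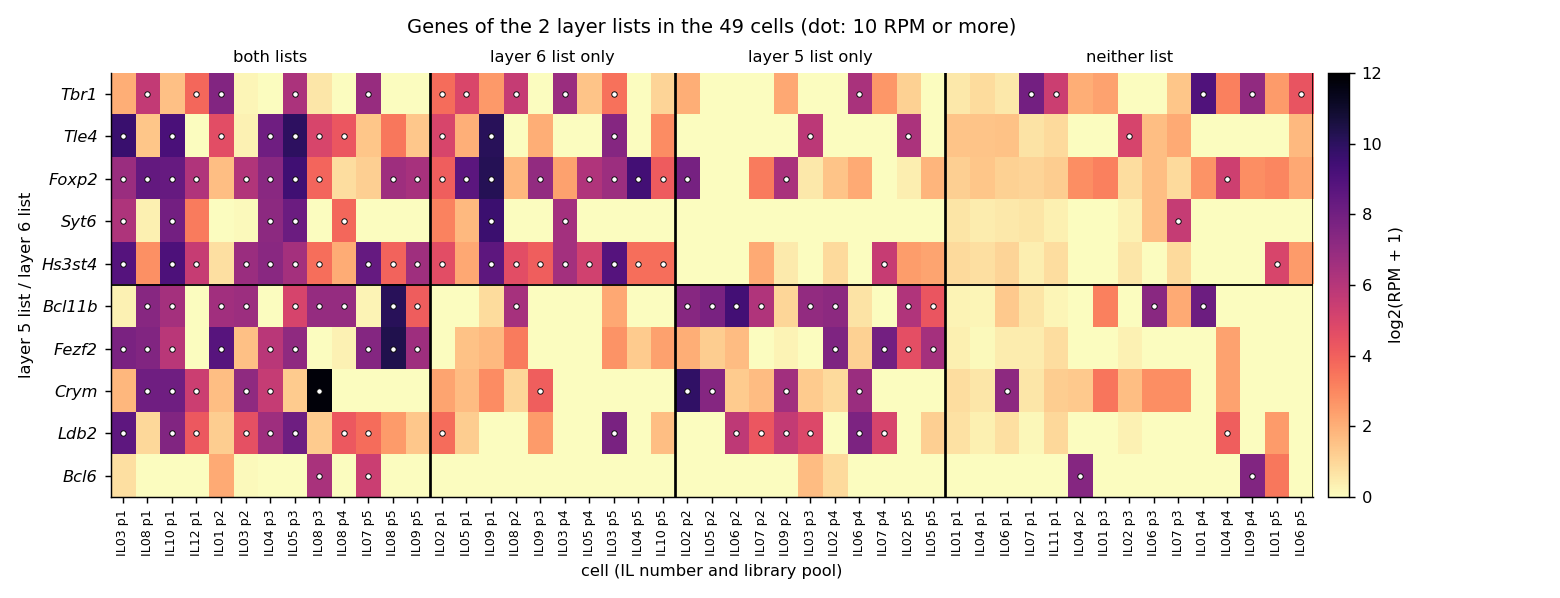
Level of the 10 genes of the rule on a log2(RPM + 1) colour scale, with genes in rows and the 49 cells in columns, grouped by the rule and ordered by library pool (p). White dots mark values of 10 RPM or more, and the 13 cells with both lists differ in which genes they hold.

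Within the layer 6 list, Foxp2 and Hs3st4 marked most of the 13 cells. Foxp2, a forkhead transcription factor (chr6:14901349-15441977, plus strand, GRCm38), reached 10 RPM in 10 of 13 cells with both lists, where it ranged from 0.75 to 700 RPM with a median of 83.1. It reached 10 RPM in 1 of 15 cells with neither list, with a range of 0.76 to 39.3 RPM. Hs3st4, a heparan sulfate sulfotransferase (chr7:123982869-124398989, plus strand), was at 10 RPM or more in 10 of 13 cells, with a median of 89.97 RPM and a highest value of 537, and in 1 of 15 cells with neither list. Both genes were as frequent in cells of the layer 6 list only, where Foxp2 reached the limit in 8 of 10 cells and Hs3st4 in 9 of 10.

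Tle4, a corepressor of the Groucho family (chr19:14448150-14598051, minus strand), was at the limit in 7 of 13 cells and had a median of 18.3 RPM and a highest value of 1006. Syt6, a synaptotagmin (chr3:103575231-103645569, plus strand), was at the limit in 5 of 13 cells with a median of 0.28 RPM and a highest value of 285. Tbr1, the T-box factor that specifies layer 6 identity (chr2:61802930-61814114, plus strand), did not separate the groups. It was at the limit in 5 of 13 cells with both lists and in 5 of 15 with neither, with medians of 1.95 and 3.97 RPM and highest values of 178 and 507. The mean of log2(RPM + 1) for Tbr1 differed by -0.48 between cells with both lists and cells with neither, and Foxp2, Hs3st4 and Tle4 were each at the limit in more of the 13 cells than Tbr1.

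Within the layer 5 list, Bcl11b and Fezf2 were each at the limit in 9 of 13 cells. Fezf2, the zinc finger factor that directs subcerebral identity (chr14:12342094-12348189, minus strand), had a median of 101 RPM and a highest value of 1296, while its highest value in the 15 cells with neither list was 3.93 RPM and in the 10 cells of the layer 6 list only 8.93 RPM. In cells of the layer 5 list only it reached the limit in 4 of 11, with a median of 2.13 RPM. Bcl11b, a zinc finger factor needed for corticospinal axons (chr12:107910403-108003602, minus strand), had a median of 89.95 RPM with both lists and 70.8 RPM with the layer 5 list only, where it was at the limit in 8 of 11 cells.

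Ldb2, a LIM domain binding cofactor (chr5:44472132-44799680, minus strand), was at the limit in 8 of 13 cells, with a median of 17.7 RPM and a highest value of 378. Crym, a thyroid hormone binding protein (chr7:120186380-120202111, minus strand), was at the limit in 6 of 13 cells and ranged from 0 to 3564 RPM. Bcl6, a transcriptional repressor (chr16:23965052-23988852, minus strand), was at the limit in 2 of 13 cells with both lists and in 2 of 15 with neither, so that it contributed least to the rule. Of the 25 pairs of a layer 6 with a layer 5 gene, 4 were held by 7 members each: Foxp2 with Bcl11b, Foxp2 with Fezf2, Hs3st4 with Fezf2 and Hs3st4 with Ldb2. Over all 49 cells, Foxp2 and Bcl11b were held together by 8 cells where 8.57 would be expected from their frequencies. Hs3st4 and Fezf2 were held together by 8 where 5.57 would be expected.

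The 13 cells were not alike in how much of each list they held. In 4 cells at least 3 genes of each list were present, and in 4 others exactly 2 of each. IL10 of pool 1 held 4 genes of each list, with Tle4 at 574 RPM, Hs3st4 at 537, Foxp2 at 320 and Syt6 at 244 beside Crym at 263, Ldb2 at 183, Bcl11b at 89.95 and Fezf2 at 58.9. IL05 of pool 3 was the 1 cell with all 5 layer 6 genes, led by Tle4 at 1006 RPM and Foxp2 at 700, and it held Ldb2 at 269, Fezf2 at 137 and Bcl11b at 31.4. IL04 of pool 3 held Tle4 at 262, Hs3st4 at 157, Foxp2 at 153 and Syt6 at 146 RPM beside Ldb2 at 102, Fezf2 at 57.7 and Crym at 46.4. These 3 cells hold deep layer genes of both kinds at 31.4 RPM or more. The smallest share of the pool's reads of a layer 5 gene was 0.98% in IL04 and 3.49% in IL05 of pool 3.

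Other cells leaned to 1 side. IL08 of pool 3 held Crym at 3564, Bcl11b at 121 and Bcl6 at 80.9 RPM, while its layer 6 genes were Tle4 at 30.8, Foxp2 at 13.48 and Hs3st4 at 11.6. IL08 of pool 5 held Fezf2 at 1296 and Bcl11b at 1110 RPM beside Foxp2 at 100 and Hs3st4 at 14.3. Conversely IL03 of pool 1 had a layer 6 sum of 1436 RPM, with Tle4 at 791, and a layer 5 sum of 593, made of Ldb2 at 378 and Fezf2 at 211. The kit reads 3′ ends, so these sums were not divided by gene length. The layer 6 sum exceeded the layer 5 sum in 7 of 13 cells and fell short of it in 6, and the sums lay within 4-fold of each other in 10.

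**Figure D2:**
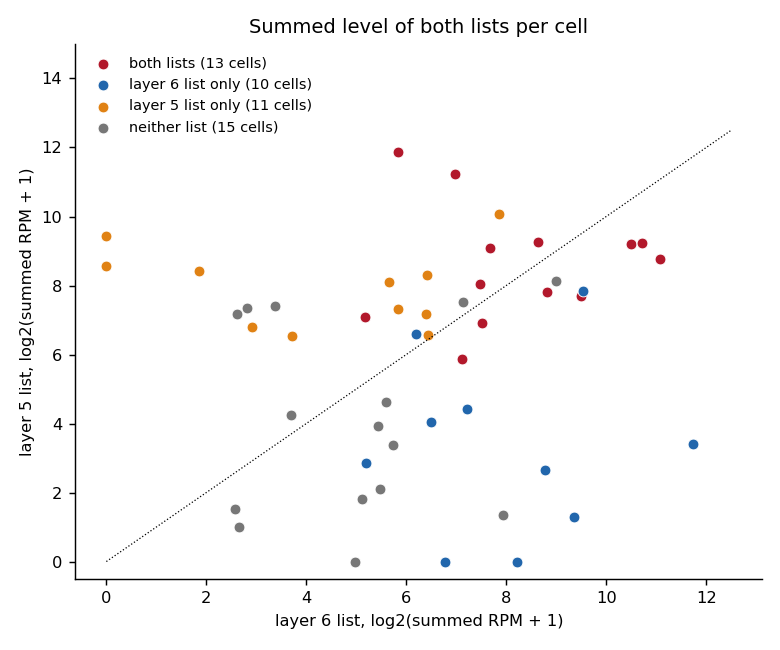
Summed level of the layer 6 list (x axis) and of the layer 5 list (y axis) in each cell, as log2(summed RPM + 1), with the dotted line at equal sums and colours for the 4 groups of the rule. The 13 cells with both lists lie on both sides of the line, and cells of other groups lie among them because the rule needs 2 genes of each list.

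Several members lay close to the limit. The second highest layer 6 gene stood at 13.01 RPM in IL08 of pool 4, at 13.48 in IL08 of pool 3 and at 14.3 in IL08 of pool 5, and the second highest layer 5 gene at 16.1 RPM in IL09 of pool 5. Just outside, IL08 of pool 2 had its second layer 5 gene at 8.93 RPM and IL03 of pool 5 at 5.41, while IL07 of pool 4 had its second layer 6 gene at 4.98. Of 16 other settings of the rule, IL10 of pool 1, IL04 of pool 3 and IL05 of pool 3 were members under every one that was tried, and IL08 of pool 5 under 7 of the 15 that could be applied to it.

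The reads behind the members were uneven. IL12 of pool 1 had 225363 reads, so that 3 reads are worth 13.3 RPM and pass the limit, and IL08 of pool 5 had 209850 reads, with 14.3 RPM for 3 reads. Both were no longer members when a marker had to reach 10 reads in place of 10 RPM. Of the 71 marker values at the limit or above in the 13 cells, 4 rested on fewer than 10 reads, and 12 made up under 5% of all reads of that gene in the pool, while 26 exceeded the reads of the gene in the rest of the pool together. The limits of 10 reads and 5% here were chosen after seeing the values. With at least 2 genes of each list above 5% of the pool's reads, 9 of 13 cells would stay. Whether reads of other cells of a pool contribute to the low values was not tested.

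Cells with both lists were read more deeply than cells with neither in 4 of 5 pools. Of these, pool 2 had 1 cell with neither list and pool 4 had 1 cell with both. Reads per cell had a median of 2912469 (range 209850 to 14416592) with both lists, 858030 (254182 to 35342325) with neither, 959722 with the layer 6 list only and 1409643 with the layer 5 list only. The ratio of the medians, both over neither, was 3.39. In pool 1 the order was the other way, with a median of 9841549 against 13841649 reads, and without pool 4 the ratio was 0.978. The groups overlapped over nearly the whole range, and 11 of 13 cells with both lists and 7 of 15 with neither had at least 1000000 reads.

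Over all pools, the median cell with both lists also held more genes, but in pool 1 the order was the other way. Genes with at least 1 read numbered 7255 (4414 to 8532) in the median cell with both lists, 6015 (3302 to 8375) with neither, 6279 with the layer 6 list only and 6601 with the layer 5 list only. After thinning every cell to 358412 reads, which left out 2 cells with both lists and 2 with neither, the medians were 5911 (n = 11) and 5011 (n = 13). Genes at 10 RPM or more numbered 4741 against 3188. Within pool 1 the medians, both against neither, were 7975 and 8114 genes with a read, 5199 and 5501 after thinning, and 4010 and 4525 genes at 10 RPM. At least 4000 genes at 10 RPM were held by 9 of 13 cells with both lists and by 6 of 15 with neither. A rule that asks for several genes at 10 RPM is met more often by cells in which more genes reach that level, so breadth and membership cannot be told apart here.

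In pool 1 the low levels of the 10 genes in cells with neither list were measured at high depth. There the 5 cells with neither list had between 8445315 and 35342325 reads, and 47 of their 50 values for the 10 genes were below 2 RPM, with at least 3 reads behind 42 of the 50. The exceptions in this pool were Crym at 142 RPM in IL06, Tbr1 at 242 RPM in IL07 and Tbr1 at 40.2 RPM in IL11. In pools 2 to 5 the deepest cell with neither list had 3939266 reads, and the shallowest, of pool 4, had 254182.

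**Figure D3:**
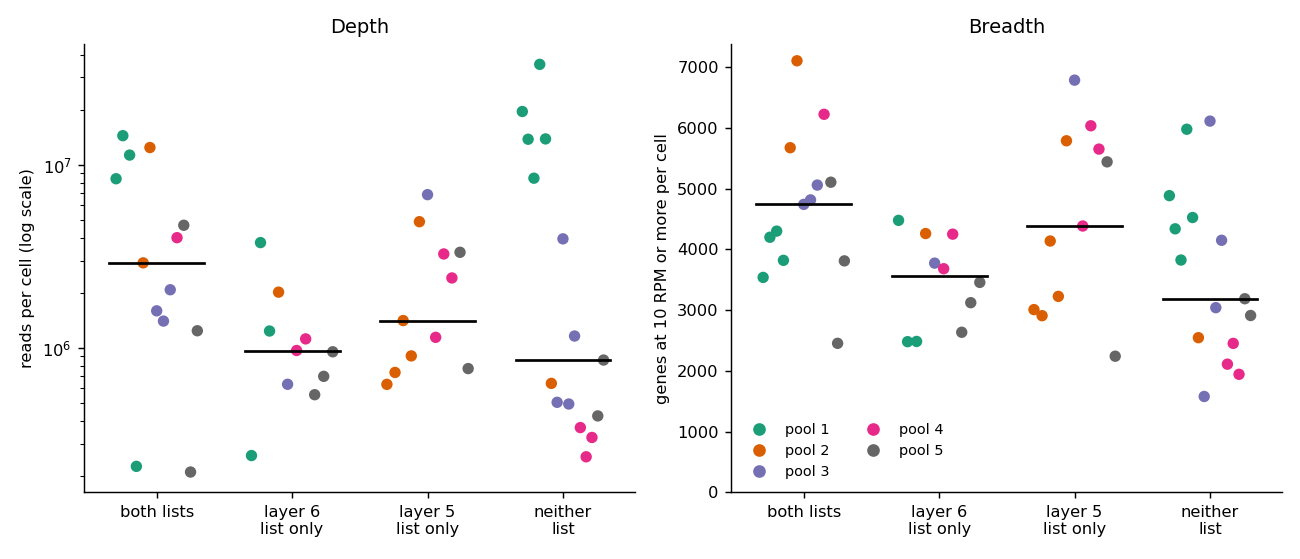
Reads per cell on a log axis (left) and genes at 10 RPM or more per cell (right) for the 4 groups, with 1 point for each cell, coloured by library pool, and a line at the median. Cells with both lists had medians of 2912469 reads and 4741 genes, against 858030 and 3188 with neither list, and pool 1 holds the deepest cells with neither list.

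All other genes were compared as the difference of the mean of log2(RPM + 1) between cells with both lists and cells with neither, for the 7412 genes outside the rule that reached 10 RPM in at least 10 of 49 cells. By this measure 657 genes (8.86%) were higher by at least 2 and 11 genes (0.148%) were lower by at least 2. Most of this asymmetry was a shift of all genes, with a median difference of 0.67. Within pools 1 to 5 the median was -0.55, 2.74, 0.85, 3.03 and 0.46, so that it turned in pool 1. Pool 2 had 1 cell with neither list and pool 4 had 1 cell with both. Relative to the median of 0.67, 159 genes were higher and 110 lower. No gene of the 7412 had values that did not overlap between the groups. Over cells with the layer 6 list only, 828 genes (11.2%) were higher and 45 (0.607%) lower, and over cells with the layer 5 list only 220 (2.97%) were higher and 180 (2.43%) lower, with medians of all genes of 0.66 and 0.07. These 3 comparisons share the 13 cells.

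Layer 6 genes outside the rule had a median difference of 1.03 over cells with neither list, beside 0.67 for all genes, and 2 of 8 genes compared passed the fold upward and 0 downward. Without pool 1 the median was 0.90 and lay below the 1.26 of all genes. Sox5, a SoxD factor that times the production of deep layer neurons (chr6:143828425-144781977, minus strand), was 5.02 ± 2.90 with both lists and 2.20 ± 2.69 with neither on the log2 scale (mean ± SD, n = 13 and 15). It ranged from 0.50 to 478 RPM with a median of 30.6 in the former and from 0 to 322 RPM with a median of 1.64 in the latter, so the groups overlapped. Ppp1r1b (DARPP-32), a phosphatase inhibitor of dopamine signalling, was higher by 2.74 and reached 10 RPM in 6 of 13 against 1 of 15 cells. Sox5 reached it in 8 of 13 and 3 of 15. With the layer 5 list only, Ppp1r1b was at 10 RPM in 6 of 11 cells and Sox5 in 7 of 11. With the layer 6 list only they were in 3 of 10 and 4 of 10, so neither gene was particular to cells with layer 6 genes. Rprm, enriched in layer 6, was at 10 RPM in 12 of 13 and 10 of 15 cells with a difference of 1.53. Ntsr1, a marker of corticothalamic neurons, was at 10 RPM in 3 of 13 and 3 of 15 cells.

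Layer 5 genes outside the rule had a median difference of 1.77, with 2 of 5 genes past the fold upward and 0 downward. When medians over cells replaced means it was 0.67, beside 0.72 for all genes. Tox, an HMG box factor (chr4:6686353-6991557, minus strand), was at 10 RPM in 6 of 13 cells with both lists and in 0 of 15 with neither (exact upper bound 21.8%), where its highest value was 3.45 RPM. The difference of Tox was 2.98, and 1.87 without pool 5. It differed by -0.02 from cells of the layer 5 list only and was higher by 2.12 than in cells of the layer 6 list only. S100a10, an annexin-binding protein of layer 5 neurons, was higher by 2.22, with 7 of 13 and 2 of 15 cells at 10 RPM. Etv1 (Er81), an ETS factor of layer 5, was at 10 RPM in 5 of 13 and 1 of 15 cells with a difference of 1.77, and Pcp4 was at 10 RPM in 12 of 13 and 11 of 15. Igfbp4 went the other way with a difference of -0.33, at 10 RPM in 5 of 13 and 5 of 15 cells.

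Transcription regulators of projection neurons had a median difference of 0.62 over 23 genes compared, beside 0.67 for all genes, with 3 past the fold upward and 1 downward. Zbtb18 differed by -1.30 and Mef2c by -1.17. Within this list, Tshz3, a zinc finger homeobox factor (chr7:36698118-36773553, plus strand), was higher in cells with both lists than in each of the other groups. The difference was 2.69 over neither list, 3.004 over the layer 6 list only and 3.31 over the layer 5 list only. Over neither list it was positive within all 5 pools, from 2.52 to 4.61. The median of all genes within pools 1 to 5 was -0.55, 2.74, 0.85, 3.03 and 0.46, so most genes were also positive in pools 2 to 5. The share of all genes positive in all 5 pools is not given here. Of these pools, pool 4 gave 1 cell with both lists, IL08, and pool 2 gave 1 cell with neither. Tshz3 reached 10 RPM in 8 of 13 cells with both lists, where it ranged from 0 to 336 RPM with a median of 37.7, and in 2 of 15 with neither, where it ranged from 0 to 157 RPM with a median of 0.83. The 3 members that held both lists under every setting had Tshz3 at 120, 48.3 and 336 RPM. The groups overlapped, since 2 members had 0 reads of Tshz3 and 1 had 1 read.

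By means over cells, genes of superficial layers and intracortical neurons did not share the general shift. Their median difference was -0.0030 over 16 genes compared, beside 0.67 for all genes, and 1 gene passed the fold upward and 2 downward. With medians over cells it was 0.64, beside 0.72 for all genes. Other lists also lay low: 9 of 19 lists were above the all-gene median, and hemoglobin genes were at -0.59 and heat shock genes at 0.08. Lhx2, a LIM homeobox factor of progenitors and superficial neurons (chr2:38339281-38369733, plus strand), was lower by 2.66, at 10 RPM in 2 of 13 cells with both lists and in 7 of 15 with neither, with medians of 1.33 and 9.41 RPM and highest values of 95.1 and 505. It was lower within all 5 pools, with differences of -4.69, -2.68, -1.78, -1.57 and -5.09 in pools 1 to 5. The share of all genes lower in all 5 pools is not given here. Pool 2 gave 1 cell with neither list and pool 4 gave 1 cell with both. Without pool 1 the difference of Lhx2 was -1.67 and did not pass the fold. Mdga1, an adhesion protein of superficial neurons, was lower by 2.04, with 1 of 13 and 6 of 15 cells at 10 RPM. Cux1 and Cux2, homeobox factors of superficial neurons, were each at 10 RPM in 6 of 13 and 9 of 15 cells. Lmo4 was higher by 2.02, with 12 of 13 and 9 of 15 cells. It was at 10 RPM in 10 of 10 cells of the layer 6 list only and 9 of 11 of the layer 5 list only.

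**Figure D4:**
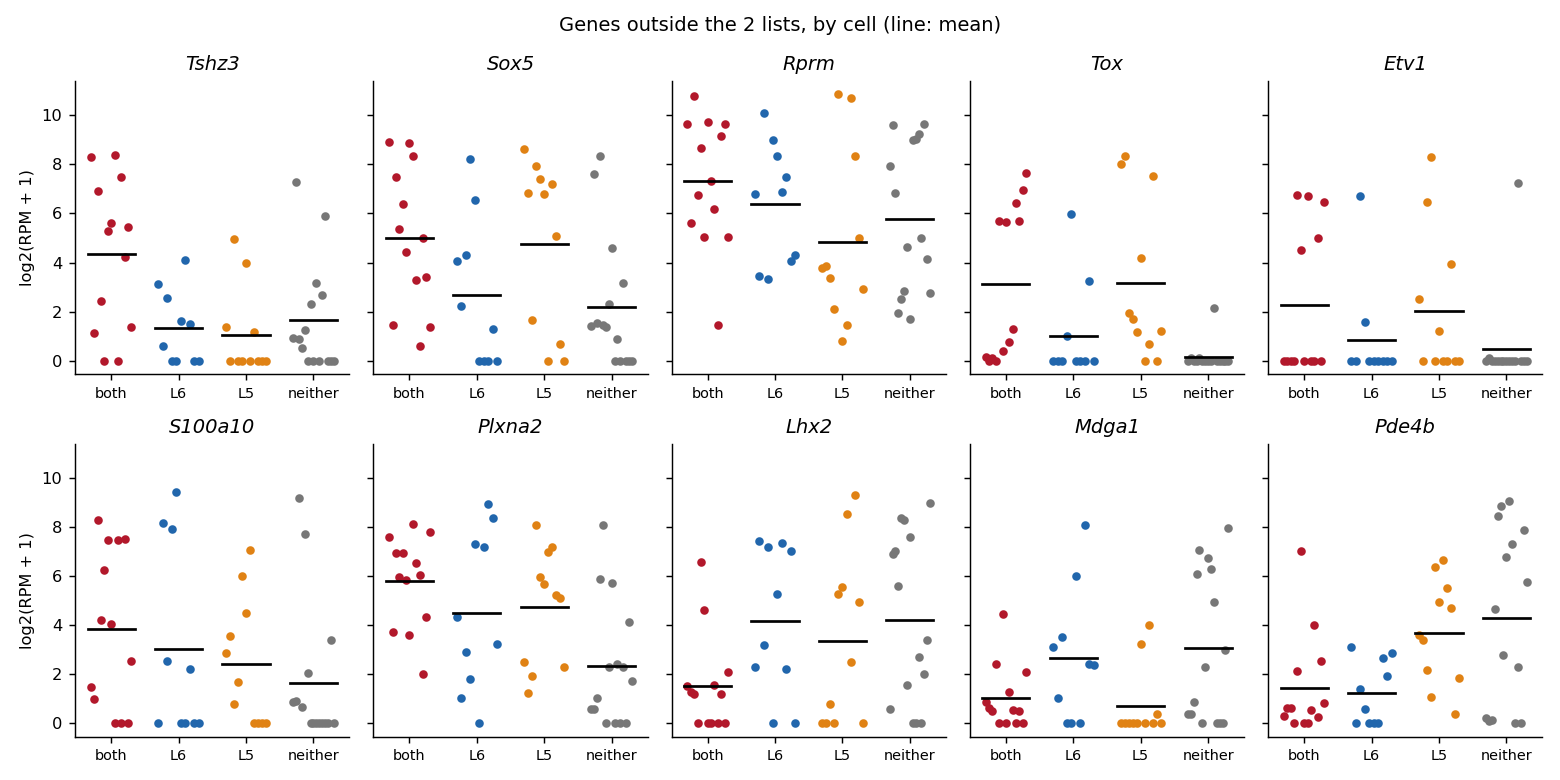
Level of 10 genes outside the rule as log2(RPM + 1), 1 point for each cell, for cells with both lists (both), with the layer 6 list only (L6), with the layer 5 list only (L5) and with neither, and a line at the mean. Tshz3 has its highest mean with both lists and Lhx2 its lowest, and the groups overlap for each gene.

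Axon guidance and adhesion genes had a median difference of 0.77 over 20 genes compared, with 3 past the fold upward and 1 downward. Plxna2, a semaphorin receptor (chr1:194618218-194816869, plus strand), was higher by 3.48 and was at 10 RPM in 12 of 13 cells with both lists and 4 of 15 with neither, with medians of 64.3 and 2.33 RPM. Robo2, a Slit receptor, was higher by 2.28, with 11 of 13 and 6 of 15 cells. Epha5, an ephrin receptor, was higher by 2.05, with 13 of 13 and 8 of 15 cells. With the layer 6 list only, Robo2 was at 10 RPM in 8 of 10 cells and Epha5 in 7 of 10. With the layer 5 list only they were in 8 of 11 and 10 of 11. Unc5a, a netrin receptor, was lower by 2.03, at 10 RPM in 1 of 13 cells with both lists and 7 of 15 with neither. It was also infrequent with the layer 6 list only (0 of 10 cells) and the layer 5 list only (2 of 11). Voltage-gated channel genes had a median of 0.24 over 25 genes, below that of all genes, with Scn1a higher by 2.15 and Cacna1c by 2.23. In the same list Cacnb4 differed by -1.87. Scn1a was at 10 RPM in 6 of 13 cells with both lists and 5 of 15 with neither. It was in 2 of 10 with the layer 6 list only and 7 of 11 with the layer 5 list only. Receptors for glutamate and GABA had a median of 0.59 over 19 genes, with Gria3, an AMPA receptor subunit, higher by 2.50.

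Pan-neuronal genes differed by 0.20 in the median over 16 genes and excitatory neuron genes by 0.70 over 7, beside the 0.67 of all genes. Both medians turned among cells with excitatory markers, to -0.38 and -0.16, and the excitatory median was 1.31 without pool 1 and 0.23 without pool 5. The pan-neuronal median was also below 0 without cells with at least 1% hemoglobin reads (-0.05) and with medians over cells (-0.04). Nefl, the light neurofilament subunit, was the 1 pan-neuronal gene past the fold, with a difference of 2.81, a median of 406 RPM with both lists and 23.6 RPM with neither. Hspa5, the main chaperone of the endoplasmic reticulum, was higher by 3.03 and at 10 RPM in 13 of 13 and 7 of 15 cells. With the layer 6 list only, 10 of 10 cells reached that level, and with the layer 5 list only 10 of 11 did. The list of heat shock and stress genes had a median of 0.08 over 9 genes.

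The genes outside the rule with the largest positive differences were ranked among those at 10 RPM in at least 50% of the cells with both lists. Npc2, a lysosomal cholesterol carrier (chr12:84754562-84773152, minus strand), was higher by 4.45, at 10 RPM in 11 of 13 and 4 of 15 cells, with medians of 132 and 1.07 RPM. Fchsd2, an F-BAR protein of endocytosis (chr7:101092863-101284405, plus strand), was higher by 4.43, with 10 of 13 and 2 of 15 cells and medians of 176 and 0.36 RPM. The nucleolar GTPase Gnl2 was higher by 4.20 and the fucosyltransferase Fut9 by 4.12, each at 10 RPM in 11 of 13 cells with both lists. Parp1, which adds ADP-ribose chains at DNA breaks, and Cops3, a subunit of the COP9 signalosome, were at 10 RPM in 13 of 13 cells and in 6 and 5 of 15, with differences of 3.89 and 3.59. The other genes of the highest 12 were Psmg1, Kptn, Coa5, Mrpl47, Saxo2 and Ttc19, with differences of 3.50 to 4.15. These genes were picked for their size among 7412, of which 8.86% were past the fold, and their values are not support for a difference.

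The lowest genes were ranked among those at 10 RPM in at least 50% of the cells with neither list, which leaves out Lhx2, Mdga1 and Unc5a. Among the genes so ranked, Pde4b, a phosphodiesterase that degrades cAMP, was lower by 2.83, at 10 RPM in 2 of 13 cells with both lists and 8 of 15 with neither, and it differed by 0.20 from cells of the layer 6 list only. Fkbp1b, a ryanodine receptor binding protein, was lower by 2.54 with medians of 84.3 and 276 RPM, and Cnr1, the CB1 cannabinoid receptor, by 2.37 with 4 of 13 and 11 of 15 cells. Pex13, of peroxisomal import, was lower by 2.16 and Lrrtm1, a postsynaptic adhesion protein, by 2.02. Rps24-ps3 was lower by 2.02, but it is a pseudogene that shares sequence with its parent gene, so its reads are uncertain. The other 6 of the 12 genes lowest by this ranking differed by -1.98 to -1.92 and did not pass the fold.

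**Figure D5:**
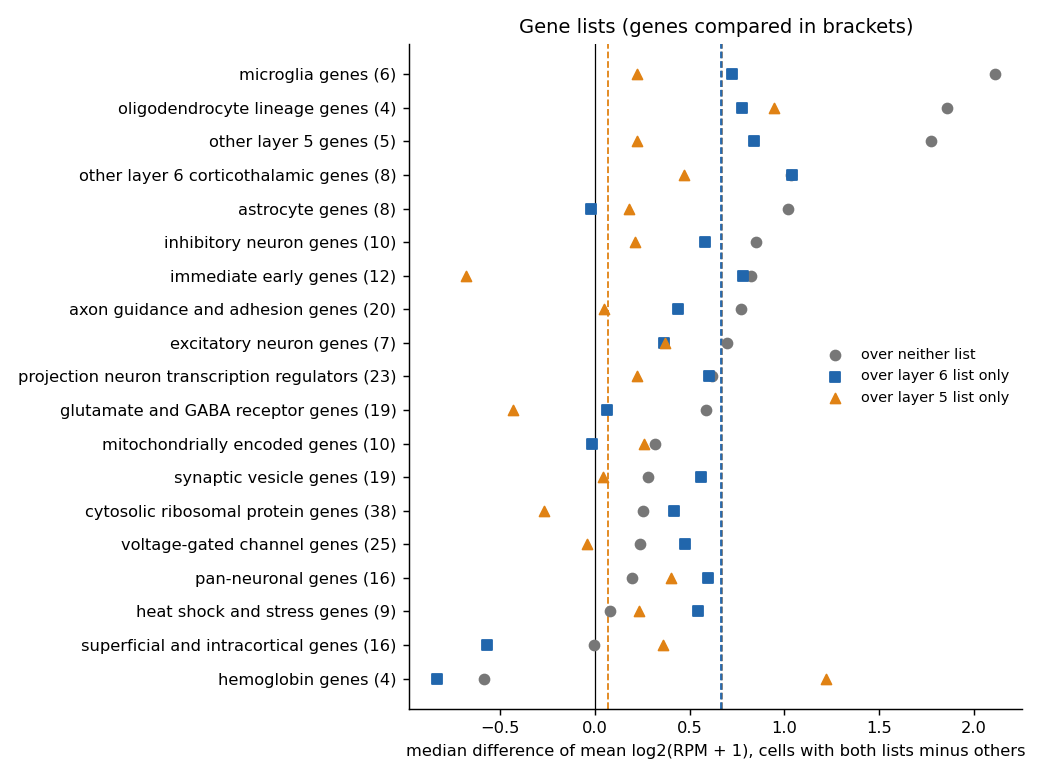
Median difference of mean log2(RPM + 1) between cells with both lists and each of the 3 other groups, for the gene lists with at least 3 genes compared (number in brackets), with dashed lines at the median of all genes in the same colour. Over neither list, microglia (2.11) and oligodendrocyte lineage genes (1.86) lie farthest above the all-gene median of 0.67. Hemoglobin (-0.59) and superficial genes (-0.0030) lie farthest below it.

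Markers of excitatory neurons were present in most cells with both lists. At least 2 of Slc17a7, Neurod2 and Neurod6 reached 10 RPM in 12 of 13 such cells (92.3%, 64.0% to 99.8%), in 9 of 15 with neither list (60.0%, 32.3% to 83.7%), in 8 of 10 with the layer 6 list only and in 6 of 11 with the layer 5 list only. The other genes of the wider excitatory list went both ways. Camk2a differed by -0.48, at 10 RPM in 6 of 13 cells with both lists and 10 of 15 with neither, and Nrgn by -1.14. Slc17a6 differed by 0.78 and Emx1 by 0.70. The 1 cell with both lists that did not meet this count was IL08 of pool 4, whose 3 excitatory markers summed to 4.003 RPM. It held Gad1, Gad2, Slc32a1, Lhx6 and Sst, each above the rest of its pool together, with Sst at 5288 RPM, and its layer genes were Bcl11b at 118, Tle4 at 18.3, Ldb2 at 17.8 and Syt6 at 13.01 RPM. For this cell the name of a deep layer excitatory neuron goes against its markers. Bcl11b is also known from cortical interneurons. Meeting the excitatory count did not exclude higher inhibitory levels. The inhibitory markers summed to more than the excitatory ones in IL12 of pool 1 (3292 against 39.9 RPM) and IL03 of pool 2 (729 against 214). The same held in IL08 of pool 5 (743 against 286 RPM), where fewer than 2 inhibitory markers reached 10 RPM.

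Markers of other cell types were found beside the layer genes. At least 1 of the 4 other classes counted (inhibitory neuron, astrocyte, oligodendrocyte lineage and microglia, each with at least 2 markers at 10 RPM) was present in 10 of 13 cells with both lists, 7 of 15 with neither, 7 of 10 with the layer 6 list only and 7 of 11 with the layer 5 list only. Oligodendrocyte lineage markers were present in 8 of 13 (61.5%, 31.6% to 86.1%) and 2 of 15 cells (13.3%, 1.66% to 40.5%), in 2 of 10 with the layer 6 list only and in 3 of 11 with the layer 5 list only. Their summed level ranged from 0 to 1771 RPM with both lists and from 0 to 673 RPM with neither. The wider oligodendrocyte lineage list had a median difference of 1.86 over 4 genes, but of 0.52 with medians over cells. Olig2 was not analysed here, and none of the 4 markers in the table was at 0 in every cell of a group.

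Inhibitory markers were present in 6 of 13 and 3 of 15 cells, with summed levels of 1.28 to 6185 RPM and 0.59 to 445 RPM. Of the microglia list, 6 of the 13 genes in the table were compared, with a median of 2.11 (3.08 among cells with excitatory markers) and 4 past the fold upward, beside 8.86% of all genes. The 7 genes that did not reach 10 RPM in enough cells differed by 0.14 (Tmem119) to 1.71 (Ctss), so none of them reached the fold. Astrocyte markers were present in 3 and 2 cells (0 to 960 and 0 to 871 RPM) and microglial markers in 2 and 2 (0 to 2367 and 0 to 601 RPM). The wider inhibitory list had a median difference of 0.85 over 10 genes compared, beside 0.67 for all genes, with 2 past the fold upward and 0 downward, and it was 0.28 without pool 4, beside 0.34. Within it, Erbb4 differed by -0.77 and Vip by -0.16. Sst, a peptide of interneurons, was higher by 3.48, at 10 RPM in 7 of 13 and 3 of 15 cells, and among cells with excitatory markers the difference of Sst was 2.70. In 2 of the 8 members with oligodendrocyte markers, in 2 of the 6 with inhibitory markers and in 2 of the 2 with microglial markers, at least 2 markers exceeded the reads of the rest of the pool. IL03 of pool 2 held all 4 other classes, and it had the most genes at 10 RPM of the 13 cells, 7105. The part of these RNAs in the differences of other genes was not tested.

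Hemoglobin genes took between 0.0114% and 1.09% of the reads in cells with both lists and up to 68.8% with neither list. Mitochondrial reads made up 0.264% to 6.49% with both lists and 0.0972% to 4.86% with neither. Across the 7412 genes, which are not independent replicates, the median Pearson's r between cells was 0.392 for the 78 pairs within the cells with both lists, 0.346 for the 105 pairs within those with neither, and 0.361 for the 195 pairs between these groups. The 13 cells were little closer to each other than to cells without the lists.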

How the data were processed

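The deposited RPM values for 9020 genes in 49 cells were made by the authors from reads of SMART-Seq v4 3′ DE libraries, aligned to mm10 with STAR and counted with HTSeq, whose versions are not given in the sources used here. The table holds genes that reach 100 RPM in 2 or more cells. Reads were recovered by dividing each value by the worth of 1 read in its cell; the nonzero values gave whole reads in 100% of cases (tolerance 0.01). Totals ranged from 209850 to 35342325 reads (3 reads are worth up to 14.3 RPM), and reads without molecular identifiers are not independent molecules.

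The members, marker lists and gene lists were chosen with earlier results of these data known. Differences are of the mean of log2(RPM + 1) for genes at 10 RPM in at least 10 cells, and 2 was the fold used. Cells are not replicates and the groups came from the values, so no count test was run on the recovered reads and no p-value is given. Named genes are the 10 of the rule, the 12 largest differences in each direction among genes at 10 RPM in at least 50% of the higher group, and in each list the 3 largest differences and the members present in the most cells of the group with both lists. Cux1, Cux2, Ntsr1 and the genes of any list outside these, such as Unc5a, Zbtb18, Mef2c, Erbb4, Vip, Tmem119 and Ctss, were named after their values were seen. One further gene is not reported here and was left out of the gene lists. On simulated cells the comparison recovered most planted changes but underestimated their size, and the limit by which this was accepted was set after a stricter one had failed. Coordinates are of GENCODE M21 (GRCm38). edgeR 4.0.16 in R 4.3.3 gave TMM factors only, and all else ran in Python 3.11.15 with pandas 2.3.3, scipy 1.17.1, numpy 2.4.6 and matplotlib 3.10.9.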

Additional observations from a re-analysis of the deposited data

How the results depend on the processing

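The number of cells with both lists (13) was 8 at a limit of 20 RPM, 5 at 50 RPM, 20 at 10 reads (of which 11 are members), 26 with 1 gene of each list and 4 with 3. Cells with neither list (15) numbered 9 at 5 RPM, 30 at 50 RPM, 3 with 1 gene, 36 with 3 genes and 23 without Bcl11b. The ratio of median reads (3.39) was 2.06 without pool 2 and 0.978 without pool 4. Genes higher by at least 2 (657) numbered 1801 with a pseudocount of 0.1, 29 with 10, 2051 without pool 1, 396 without pool 4, 2170 with medians over cells and 159 relative to the median of all genes. Genes lower by at least 2 (11) numbered 49 with a pseudocount of 0.1, 0 with 10, 21 without hemoglobin and mitochondrial reads, 39 after thinning, 33 with pool as a term, 25, 53, 42, 78 and 21 without pools 1 to 5, 58 without cells with at least 1% hemoglobin reads, 116 among cells with excitatory markers, 149 with medians, 110 relative to the median of all genes and 85 without cells under 500000 reads, an alternative chosen after seeing the data. The cause of these shifts was not tested. The median of hemoglobin genes was -0.59 and was 0.37 without pool 3, and that of mitochondrial genes was 0.32 and was -0.07 without pool 2. For the named genes, 1776 values under the alternatives changed by less than the SD between cells. This limit is wide, so the count does not show that the differences hold. Lhx2 without pool 1 and Tox without pool 5 no longer passed the fold and are still among these values. The 2 values that moved further, Fchsd2 (7.03) and Hspa5 (5.45) with medians over cells, kept their direction. No paired analysis was possible because the labels give a single group and the groups compared come from the measured values.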
